A study of Mus musculus with 162 samples.

Results

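Ganglia from mice injected with aGr1, an antibody against Gr1 that depletes neutrophils, made up 8 of the 162 libraries of the series: trigeminal ganglia of wild-type mice at day 8 of the MC903 model, 4 after MC903 and 4 after ethanol on the cheek. They were chosen by their labels (trigeminal ganglion, wild-type, aGr1 injection, day 8), and the whole transcriptome of the 4 MC903 libraries was compared with that of the 4 ethanol libraries. All mice were adult C57BL/6 males. MC903, a vitamin D analog that provokes a skin disease resembling atopic dermatitis, was given once a day as 20 µL of a 0.2 mM solution, ethanol was its vehicle, and the ganglion on the treated side was taken. Each aGr1 mouse received 250 µg of the antibody into the peritoneum, starting the day before the first cheek treatment and then every afternoon until day 7, so the MC903 and the ethanol mice of this comparison both carried it. The antibody binds Ly6G and Ly6C, and can therefore reach some monocytes as well as neutrophils. Mice injected with PBS, the vehicle of the antibody (4 MC903 and 3 ethanol libraries), and mice that received no injection (5 and 5) are given beside them. The question the comparison addresses is how sensory ganglia respond to inflamed skin when neutrophils have been removed.

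The trigeminal ganglion holds the cell bodies of the neurons that innervate the face, wrapped by satellite glia and accompanied by Schwann cells, fibroblasts, vessels and resident macrophages. Itch is carried by small-diameter neurons that bear receptors for cytokines such as IL-31 and signal to the spinal cord with peptides such as the natriuretic peptide encoded by Nppb. Inflamed skin changes transcription in these neurons and in the cells around them, and antigen presentation by MHC class II molecules is mainly the work of macrophages, dendritic cells and B cells.

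The 8 libraries held 18969540 to 24653142 counts on genes. Levels are given as cpm, a gene's count scaled to its library's TMM-adjusted total, and a gene was called higher or lower at an adjusted p under 0.1. The labels do not say that libraries of a group came from separate mice, so the p-values measure the spread between these libraries. The ganglion was recognisable in all 8: the summed level of 19 sensory neuron markers ran from 15046.74 to 17953.54 cpm, and 1 of the 19, Calca, was called.

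In other respects 3 of the libraries stood apart. Ethanol replicate 2 lay at 20.7 on the first principal component of the injected libraries, which held 39.4% of the variance, against -36.2 to -14.9 in the other 7 aGr1 libraries and 18.2 to 28.4 in the PBS libraries. In MC903 replicate 1 the summed level of 20 neutrophil markers was 214.06 cpm, against 26.75 to 57.03 cpm in the other 7 aGr1 libraries, and the sum of the brain and oligodendrocyte markers was 1523.3 cpm, against 255.69 to 875.26. In MC903 replicate 2 the sum of 7 erythroid markers was 7472.72 cpm, against 358.25 to 2858.46 in the other 7, and that of the macrophage markers was 115.78 cpm, against 188.62 to 252.1. Counts of called genes in most lists with calls are therefore also given without all 3 of them. That leaves 2 MC903 and 3 ethanol libraries. In that fit 4 of the 19 sensory neuron markers were higher and none lower. Of 11 myelinating Schwann cell markers, 1 was higher and none lower with all 8 libraries, and 1 higher and 5 lower without the 3. Of 8 endothelial markers, 2 were higher with all 8 and none without the 3. The 10 satellite glial markers had 1 higher and 1 lower in both fits.

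**Figure D1:**
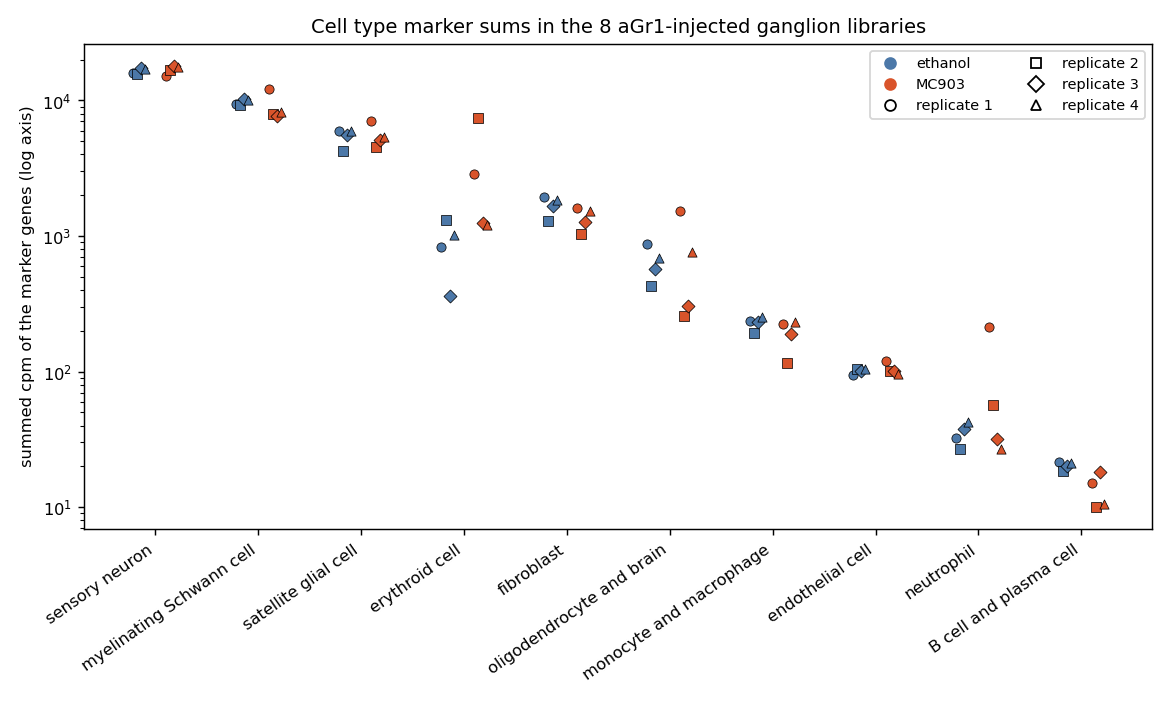
Summed level in cpm (log axis) of the marker genes of 10 cell types in each of the 8 aGr1-injected libraries, with ethanol in blue, MC903 in orange and the replicate given by the shape. The sensory neuron sums lie close together, MC903 replicate 1 is highest for neutrophil markers at 214.06 cpm, and MC903 replicate 2 is highest for erythroid markers at 7472.72 cpm.

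After aGr1, MC903 ganglia held more RNA of 15 of 23 glucocorticoid-responsive genes and of single itch and activity genes such as Il31ra, Osmr, Nppb, Nptx2, Fosl2 and Bdnf, and less of 5 of 9 MHC class II genes and 9 of 44 collagen genes. Most members of the itch, activity, interferon, clock and collagen lists did not pass. Of 24233 genes tested, 212 were higher (0.875%) and 244 lower (1.01%), 1.88% in all, and 94 and 59 of these differed by more than 2-fold. Of the 456 calls, 435 had treated and control libraries without overlap, whereas over all genes tested this held for 4.05% (higher) and 4.09% (lower). Without the 3 libraries that stood apart, 248 genes were higher and 342 lower, and with 1 library left out at a time the total ran from 161 to 463. It was 161, 217, 245, 267 and 301 without ethanol replicate 3, MC903 replicate 4, MC903 replicate 2, ethanol replicate 1 and ethanol replicate 4. Of the 73 genes named below as called in this comparison, 45 were called in all 8 of these fits. The 28 that lost their call in at least 1 were Trpa1, Cysltr2, Nr1d2, Calca, Ifit3, Nptxr, Nr3c1, Vgf, Klf2, Tsc22d3, Il6ra, Asic1, Bhlhe40, Cacna2d1, Usp18, P4ha1, Gbp3, Slc4a1, Alas2, Hbb-bt, Fcgr1, Cx3cr1, Adgre1, Aif1, Cd163, Ifi27l2a, Col10a1 and Ighm. Without the 3 libraries together, Asic1 (adjusted p = 0.292), Il6ra (0.233), Klf2 (0.128), Tsc22d3 (0.111), Bhlhe40 (0.107), Ifi27l2a (0.275), Hbb-bt (0.147) and Aif1 (0.116) lost theirs.

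Among 25 itch neuron genes tested, 5 were higher and 1 was lower. The 5 higher genes, Il31ra, Osmr, Nppb, Trpa1 and Cysltr2, were those the study had named for itch neurons on libraries of this series. Their direction is not independent evidence, nor is that of Bdnf, Nptx1, Nptx2, Nptxr, Vgf and Junb below, which it also named. Il31ra encodes the receptor subunit that binds IL-31 and lies at chr13:112519898-112594360 on GRCm38. Its level was 37.55, 46.09, 42.48 and 38.57 cpm in MC903 replicates 1 to 4 and 17.52, 17.34, 15.99 and 18.95 cpm in ethanol replicates 1 to 4. Every MC903 library was thus above every ethanol library, by 1.23 ± 0.097 on the log2 scale (SE, n = 4 and 4; adjusted p = 7e-05). Osmr, the partner subunit of that receptor, was at 40.73, 46.57, 41.92 and 40.4 cpm after MC903 and 20.66, 25.94, 20.33 and 24.39 cpm after ethanol (log2 difference 0.89 ± 0.101, adjusted p = 0.000807). Nppb, which encodes a peptide transmitter of itch neurons, was at 15.81, 10.26, 20.53 and 17.06 cpm against 7.314, 4.085, 5.7 and 5.487 cpm, 1.49 ± 0.208 higher on the log2 scale (adjusted p = 0.0029).

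The other members that passed were smaller or pointed down. Trpa1, an irritant-gated ion channel of itch and pain fibres, was higher by 0.34 ± 0.078 on the log2 scale (adjusted p = 0.0627), and Cysltr2, a receptor for cysteinyl leukotrienes, by 0.81 ± 0.21 (adjusted p = 0.0967). Both calls were lost in 7 of 8 fits with 1 library left out and kept without ethanol replicate 2. Mrgprb5, a receptor of the Mrgpr family of sensory neurons, fell by 1.18 ± 0.176 on the log2 scale, at 3.544, 4.988, 4.124 and 3.37 cpm against 10.83, 7.363, 7.617 and 10.37 cpm (adjusted p = 0.00516). The remaining 19 itch neuron genes did not pass, and the median log2 difference of the 25 was 0.011, beside 0.0031 over all genes tested. Leaving out the 3 libraries that stood apart gave 8 higher and 1 lower.

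Among 33 activity-induced and immediate early genes, which neurons transcribe after firing, 5 were higher and none lower. Nptx2, a secreted pentraxin that clusters glutamate receptors at synapses, was at 82.14, 93.33, 98.07 and 129.3 cpm after MC903 and 33.67, 47.7, 40.2 and 36.44 cpm after ethanol (log2 difference 1.345 ± 0.139, adjusted p = 0.000457). Fosl2, a partner of Jun in the AP-1 transcription factor, was at 22.85, 23.07, 18.94 and 23.22 cpm against 9.403, 10.31, 7.768 and 7.888 cpm (1.31 ± 0.124, adjusted p = 0.000221). Bdnf, a growth factor of sensory neurons, was at 77.91, 52.37 and 101.2 cpm in MC903 replicates 1 to 3 and higher still in replicate 4, against 39.18, 20.71, 42.78 and 36.87 cpm (1.32 ± 0.236, adjusted p = 0.0148). The groups did not overlap for any of the 3.

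The other 2 were Klf2, a transcription factor of quiescent and endothelial cells, at 0.85 ± 0.201 (adjusted p = 0.0674), and Vgf, a neuropeptide precursor, at 0.78 ± 0.191 (adjusted p = 0.0756), whose groups overlapped. Classic immediate early genes were among the 28 that did not pass: the log2 difference was 0.33 for Fos, 0.46 for Egr1, -0.86 for Egr3 and -1.01 for Arc. Junb, another AP-1 member, was at 5.554, 6.043, 7.861 and 6.99 cpm after MC903 and 5.604, 8.266, 6.205 and 4.758 cpm after ethanol. Its groups overlapped, with a log2 difference of 0.090 ± 0.179 (adjusted p = 0.872). Fos was at 3.491, 4.077, 4.639 and 2.413 cpm after MC903 and 2.422, 2.708, 3.077 and 3.387 cpm after ethanol. With those 3 libraries left out, 4 of the list were higher and 1 was lower.

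Alkal2, the ligand of the receptor ALK on sensory neurons, rose most of 14 neuroinflammatory and pentraxin genes, of which 6 were higher and none lower. It was at 3.702, 3.213, 5.67 and 5.95 cpm after MC903 and 1.472, 1.52, 1.614 and 0.9002 cpm after ethanol (log2 difference 1.75 ± 0.253, adjusted p = 0.00388). Nptxr, the membrane-bound receptor of the pentraxins, was 0.46 ± 0.107 higher (adjusted p = 0.0616), whereas Nptx1 overlapped between the groups, at 133.3, 128.2, 185.3 and 196.2 cpm against 138.3, 233.4, 159.6 and 130.8 cpm (-0.048 ± 0.18, adjusted p = 0.938). Ethanol replicate 2 held the highest value of Nptx1 and of Junb among the ethanol libraries. Without the 3 libraries that stood apart, 7 of 13 in the list were higher, Nptx1 by 0.409 on the log2 scale (adjusted p = 0.035), and Vgf by 1.249 (adjusted p = 4.17e-05).

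Calca, which encodes CGRP, was at 741.3, 558.2, 764.6 and 794.5 cpm after MC903 and 537.2, 465.4, 489.2 and 550.1 cpm after ethanol, 0.48 ± 0.113 higher on the log2 scale (adjusted p = 0.0664). With Nppb it made up the 2 of 16 neuropeptide genes that passed. Of 32 sensory ion channel genes 2 were higher, Cacna2d1 (0.42 ± 0.092) and Trpa1, and 2 were lower, among them Asic1 (-0.46 ± 0.116). With the 3 libraries left out 4 of 15 neuropeptide genes were higher, and 4 ion channel genes were higher and 1 lower. Of the 21 nerve injury genes tested edgeR called 0, with 7 at an unadjusted p under 0.05, and DESeq2 called 2 higher. The regeneration marker Gap43 was at 0.28 ± 0.188 (adjusted p = 0.555).

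**Figure D2:**
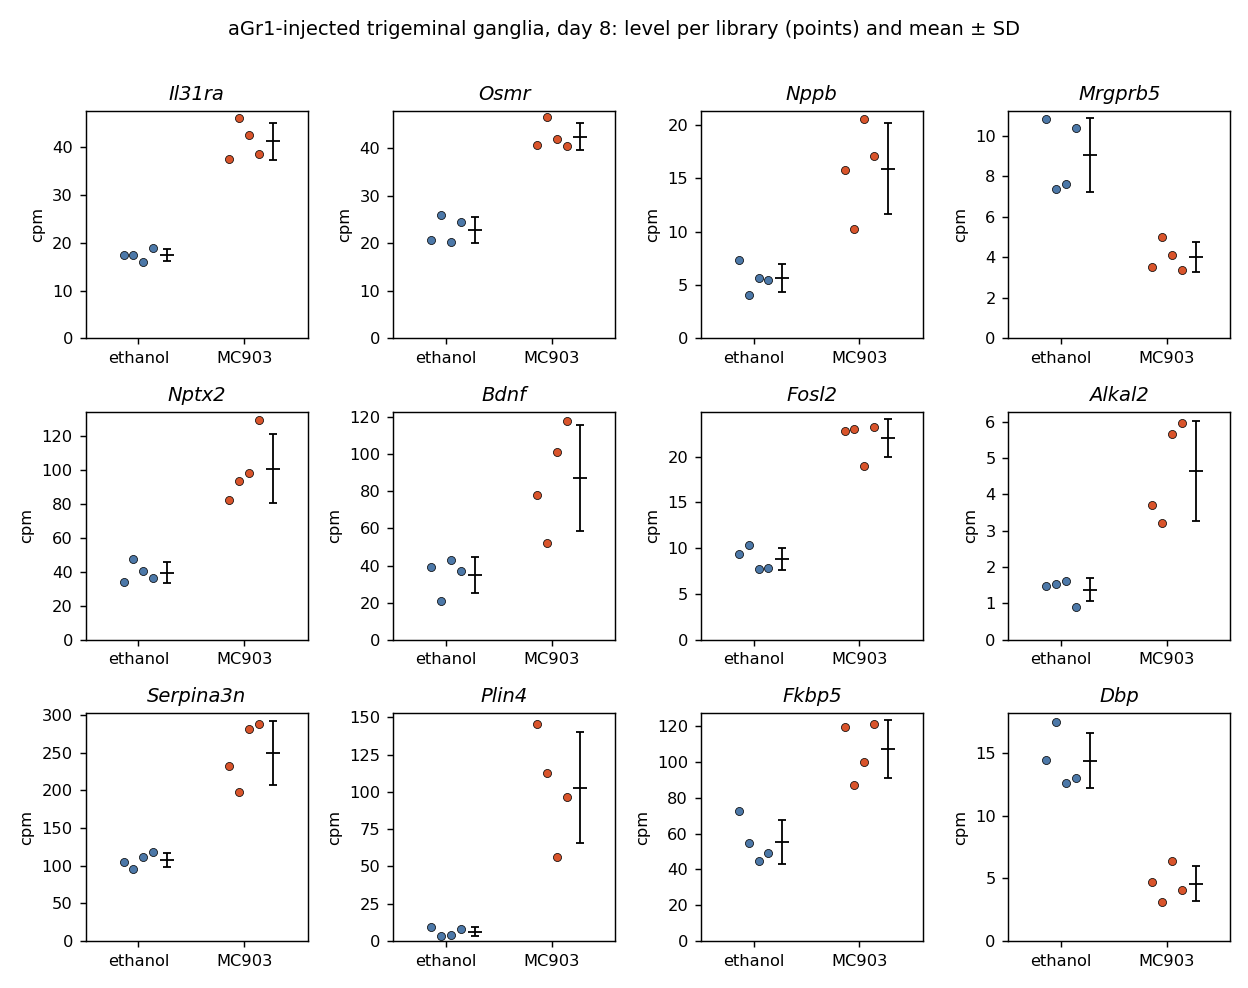
Level in cpm of 12 genes in each of the 4 ethanol (blue) and 4 MC903 (orange) aGr1-injected libraries, with the mean and SD as a cross bar at the right of each group. The groups do not overlap for any of the 12, Mrgprb5 and Dbp are lower after MC903, and Plin4 shows the widest gap as a ratio, from at most 9.261 cpm to at least 56.01 cpm.

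Genes that respond to glucocorticoids, the adrenal stress hormones, were the list with the most calls: 15 of 23 were higher and none lower, with a median log2 difference of 0.725. Plin4 encodes a coat protein of lipid droplets and lies at chr17:56100591-56109803. It was at 145.6, 112.9, 56.01 and 96.49 cpm after MC903 and 9.261, 3.278, 3.985 and 8.316 cpm after ethanol. That is 4.04 ± 0.33 on the log2 scale, 16.4-fold (adjusted p = 7.39e-05), with no overlap.

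Arrdc2, an arrestin domain protein, was at 35.91, 31.42, 18.04 and 26.67 cpm after MC903 and 9.831, 9.501, 8.374 and 7.288 cpm after ethanol (1.67 ± 0.184, adjusted p = 0.000677). Hif3a, a hypoxia-inducible factor subunit, was 2.22 ± 0.309 higher (adjusted p = 0.0029), and the kinase Map3k6 1.33 ± 0.141 (adjusted p = 0.00053). The best-known targets were chosen for mention after their values were seen: Fkbp5, a chaperone partner that restrains the glucocorticoid receptor, was 0.95 ± 0.145 higher (adjusted p = 0.00579), the metallothioneins Mt1 and Mt2 1.02 and 1.24, the kinase Sgk1 0.89 and Tsc22d3, which encodes GILZ, 0.66. The groups did not overlap for these 5 genes, while Per1, also a clock gene, did not pass (0.36 ± 0.158, adjusted p = 0.355). Nr3c1, the gene of the receptor itself, fell by 0.33 ± 0.085 (adjusted p = 0.0953). Without the 3 libraries that stood apart 13 of the 23 were higher, and with 1 library left out at a time 11 to 16.

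Serpina3n and its neighbours on chromosome 12, which encode secreted protease inhibitors of the acute-phase response, moved together. Serpina3n was at 231.9, 198, 280.9 and 288.5 cpm after MC903 and 104.6, 95.63, 111.9 and 118.2 cpm after ethanol (1.21 ± 0.12, adjusted p = 0.000354). Serpina3i was at 11.58, 8.681, 13.02 and 12.52 cpm against 3.134, 2.755, 2.674 and 2.872 cpm (1.995 ± 0.157, adjusted p = 7e-05). Of the 8 Serpina3 genes tested, chosen as a family after their values were seen, 6 were higher, from 0.86 for Serpina3g to 1.995 for Serpina3i, and without the 3 libraries 5 of 7 were. The copies are similar in sequence, so counts of single members are uncertain.

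Serpina3n and Il6ra, the IL-6 receptor subunit (0.71 ± 0.167, adjusted p = 0.0642), were the 2 higher genes among 25 cytokine and acute-phase genes, and the chemokine Ccl7 was the 1 lower gene, at 0.1587, 0.1439, 0.1289 and 0.208 cpm against 0.8073, 0.5226, 1.211 and 0.8145 cpm (adjusted p = 0.0135). These Ccl7 levels are a few reads a library after MC903. In the fit without the 3 libraries 3 of the 25 were higher and 1 lower. Socs3, the feedback inhibitor of IL-6 family cytokines, was at 8.198, 6.667, 12.67 and 8.238 cpm against 6.839, 10.26, 6.709 and 4.758 cpm and did not pass (0.32 ± 0.23, adjusted p = 0.583).

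Of 5 immune genes tested that had been singled out for the ganglion, 2 were higher and none lower. Tmem173, which encodes STING, was 1 of them. It was at 6.77, 5.132, 11.47 and 9.902 cpm against 3.562, 3.23, 3.481 and 4.115 cpm (1.21 ± 0.223, adjusted p = 0.0189), without overlap. The study chose these genes on libraries of this series, so their direction is not independent evidence. Of 11 T cell markers 1 was higher and none lower, with a median of -0.216. The T cell receptor subunit genes Cd3e and Cd3g were at -1.51 and -1.92 without passing. Without the 3 libraries that stood apart, 2 of 4 immune genes tested were higher and 1 was lower. The same fit had 1 of 10 T cell markers higher and none lower. Rag1, a recombinase of lymphocyte precursors, was at or under 0.4231 cpm in all 8 libraries.

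A further 3 genes completed the 12 with the smallest p-values in the higher direction. Lox, which encodes the enzyme that crosslinks collagen and elastin, was at 46.44, 51.13, 21.18 and 31.95 cpm after MC903 and 5.414, 4.038, 4.035 and 6.216 cpm after ethanol (2.92 ± 0.25, adjusted p = 7.9e-05). Dpep1, a membrane dipeptidase, was 2.75 ± 0.3 higher and the long noncoding RNA gene Gm12840 2.07 ± 0.211 (adjusted p = 0.000677 and 0.000418).

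Collagen genes formed the first group in the lower direction. Col3a1, a fibrillar collagen gene at chr1:45311538-45349706, was at 24.44, 18.66, 31.92 and 23.13 cpm after MC903 and 70.76, 72.21, 86.97 and 73.86 cpm after ethanol. The log2 difference was -1.63 ± 0.139 (adjusted p = 7.9e-05) and the groups did not overlap. Col14a1 fell by 1.30 ± 0.161 and Lum, which encodes a proteoglycan that binds collagen fibrils, fell by 1.38 ± 0.159 (adjusted p = 0.00132 and 0.000807).

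Looking further along the pathway, at genes chosen after these values were seen, 9 of 44 collagen genes were lower and 1, Col10a1, was higher. Col1a1 was at 43.74, 29.21, 48.75 and 42.19 cpm against 69.15, 101.2, 100.5 and 101 cpm (-1.19 ± 0.155, adjusted p = 0.0019), Col1a2 at -0.76 ± 0.121 and Col15a1 at -0.99 ± 0.159. A pair of genes of collagen folding in the endoplasmic reticulum were lower as well, the chaperone gene Serpinh1 at -1.13 ± 0.154 (adjusted p = 0.00252) and the prolyl hydroxylase gene P4ha1 at -0.54 ± 0.105 (adjusted p = 0.0269), while P4ha2, of the same enzyme family, was at -0.002 ± 0.103 (adjusted p = 0.997). The fibrillar collagen genes Col5a1 (-0.445), Col5a2 (-0.202) and Col11a1 (-0.085) did not pass, nor did the basement membrane collagens Col4a1 (-0.050) and Col4a2 (0.080) or Sparc (0.001). Leaving out the 3 libraries gave 13 lower collagen genes and 1 higher, and with 1 library left out at a time 5, without MC903 replicate 4, to 11, without MC903 replicate 1, were lower.

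The summed level of 11 fibroblast markers ran from 1035.12 to 1929.57 cpm over the 8 libraries. The 4 of the 11 that were lower were Col1a1, Col1a2, Col3a1 and Lum, whereas Pdgfra (-0.23) and Dcn (-0.33) did not pass. In the fit without the 3 libraries 4 were lower and 1 higher. In bulk tissue, fewer fibroblasts and less RNA of these genes per fibroblast cannot be told apart.

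Genes of MHC class II, which displays peptides to CD4+ T cells, were the second group in the lower direction. H2-Ab1 (chr17:34257689-34269419), the beta chain of I-A, was at 6.136, 3.549, 9.708 and 5.034 cpm after MC903 and 22.65, 25.23, 26.38 and 23.19 cpm after ethanol, and H2-Aa (chr17:34282744-34287823), its alpha chain, at 9.785, 5.42, 16.45 and 10.69 cpm against 38.33, 34.2, 37.08 and 38.54 cpm. The groups were far apart for both, with log2 differences of -1.996 ± 0.22 (adjusted p = 0.000677) and -1.81 ± 0.225 (adjusted p = 0.00138). H2-Eb1, the beta chain of I-E, fell by 1.55 ± 0.203.

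Of 9 class II genes tested, 5 were lower and all 9 log2 differences were negative. The count was 5 as well in each of the 8 fits with 1 library left out and without the 3 libraries. Besides the 3 chains these were Cd74, the invariant chain, at -1.68 ± 0.235 (adjusted p = 0.0029), and H2-DMb1, of class II peptide loading, at -0.97 ± 0.169 (adjusted p = 0.0135). Cd74, H2-DMb1 and the other class II genes were chosen after their values were seen. The transactivator gene Ciita was at -0.59 ± 0.252 without passing (adjusted p = 0.34), and so was the class I gene H2-K1 at -0.25 ± 0.093 (adjusted p = 0.271).

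Of 16 macrophage markers, Fcgr1 (-1.27), Cx3cr1 (-1.005), Adgre1 (-0.98) and Aif1 (-0.95) were lower, and Cd163, the haemoglobin scavenger receptor, was higher (0.91). The median of the 16 was -0.381. Ptprc, Cd68 and Csf1r, at -0.38, -0.38 and -0.51, did not pass. The macrophage sum ran from 115.78 to 231.8 cpm after MC903 and from 191.5 to 252.1 cpm after ethanol, so the groups overlapped. The counts were 4 lower and 1 higher without the 3 libraries, and with 1 library left out at a time 0, without ethanol replicate 3, to 4, without ethanol replicate 2, were lower.

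The sum of 12 B cell and plasma cell markers was 15.02, 9.98, 18.04 and 10.53 cpm after MC903 and 21.37, 18.34, 20.18 and 21.26 cpm after ethanol, lower in every MC903 library. Of the 12, Ighm, the heavy chain of IgM, was the 1 lower gene (-1.24 ± 0.293, adjusted p = 0.0662) and none was higher, with a median of 0.248. The part of macrophages and B cells in the class II difference was not tested.

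Of 32 interferon-induced genes, 5 were lower and none higher, with a median of -0.393. Gbp2, a guanylate-binding GTPase of antimicrobial defence, was at 5.289, 7.29, 7.388 and 6.782 cpm against 12.78, 9.501, 10.24 and 14.62 cpm (-0.82 ± 0.159, adjusted p = 0.0253). Gbp3 (-0.95), the ISG15 protease gene Usp18 (-1.09), Ifi27l2a (-0.88) and Ifit3 (-0.54) were the others. Well-known members such as Isg15 (-0.39) and Irf7 (-0.39) did not pass. Gbp genes are similar in sequence, so single members are uncertain. With 1 library left out at a time 1 to 4 were lower, and without the 3 that stood apart 6 were lower and 1 higher.

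Promoter sequences are shown for a pair of class II genes and a pair of interferon-induced genes because the letters that these families are known to share can be seen in them. They come from RefSeq on GRCm38.p6, run 5′ to 3′ along the gene and cover the 160 bases before the annotated start, at chr17:34287824-34287983 (minus strand), chr17:34305707-34305866 (plus), chr3:142620503-142620662 (plus) and chr19:34583369-34583528 (plus) in the order printed. Capitals mark CCAAT or its complement ATTGG in the class II pair, and, in the interferon pair, GAAA repeated after a gap of 2 bases (the interferon-stimulated response element) or its complement, with TTTC repeated.
H2-Aa: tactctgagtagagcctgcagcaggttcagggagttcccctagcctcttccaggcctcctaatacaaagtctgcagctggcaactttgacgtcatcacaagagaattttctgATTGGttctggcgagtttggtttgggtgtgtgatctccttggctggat
H2-Eb1: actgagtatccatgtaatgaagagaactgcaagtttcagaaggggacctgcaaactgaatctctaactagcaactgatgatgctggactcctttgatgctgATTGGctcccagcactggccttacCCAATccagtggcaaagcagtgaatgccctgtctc
Gbp2: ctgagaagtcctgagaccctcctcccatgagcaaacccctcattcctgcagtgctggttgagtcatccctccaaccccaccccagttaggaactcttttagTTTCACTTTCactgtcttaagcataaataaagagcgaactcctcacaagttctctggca
Ifit3: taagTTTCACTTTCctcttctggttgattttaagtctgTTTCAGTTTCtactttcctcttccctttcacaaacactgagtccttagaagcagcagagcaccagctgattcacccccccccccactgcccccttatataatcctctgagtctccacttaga

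CCAAT, read on both strands, stood in 37.4% of all 32851 promoter windows of 300 bases. Counted by gene, it stood in a window of 41.1% of 27025 genes. Of 6 class II genes looked up, 4 had a window, and all 4 held it. H2-DMb2, H2-Oa and H2-Ob were not looked up. The GAAA repeat, also on both strands, stood in 3.44% of the windows and in a window of 3.99% of the genes. Of the 23 interferon-induced genes in the table, 15 held it, among them Gbp2, Gbp3 and Ifit3, the 3 called genes in the table. The palindrome of the glucocorticoid receptor, AGAACA and TGTTCT with 3 bases between them, stood in 3 windows in all, 1 of which belonged to Sgk1, and in no window of the other 20 genes of its list in the table. A match is a description of the letters and not a site of binding.

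Of 18 clock genes, 4 were lower and none higher. Dbp, an output gene of the circadian clock that is transcribed when the clock activators are on, was at 4.707, 3.07, 6.4 and 4.077 cpm after MC903 and 14.44, 17.48, 12.66 and 12.99 cpm after ethanol (-1.66 ± 0.193, adjusted p = 0.000892). Nr1d1, which encodes the repressor REV-ERB alpha, was at 20.58, 13.53, 22.81 and 16.6 cpm against 30.49, 38.81, 35.87 and 38.5 cpm (-0.97 ± 0.147, adjusted p = 0.00533). Nr1d2 (-0.34) and Bhlhe40 (-0.49) were the other two, and neither Per2 (-0.38) nor the core activator Arntl (0.10) passed. The number of lower clock genes was 4 without the 3 libraries, and with 1 library left out at a time 2 to 4 were lower. The hour at which each ganglion was taken is not given in the labels.

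The rest of the 12 lower genes with the smallest p-values were of mixed function. Klrb1a, a receptor of natural killer cells, was at 0.8463, 0.7674, 0.7302 and 0.4161 cpm against 2.754, 3.183, 2.825 and 2.529 cpm (-2.04 ± 0.244, adjusted p = 0.000979). Lctl fell by 2.31 ± 0.3, Emid1, an extracellular matrix gene, fell by 1.72 ± 0.194, Kdelr3, a retrieval receptor of the endoplasmic reticulum, fell by 1.16 ± 0.136, the membrane protein gene Itm2a fell by 1.11 ± 0.127 and D430041D05Rik fell by 1.06 ± 0.126. For all 6 the groups did not overlap.

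Of 7 red blood cell genes 4 were higher, among them Slc4a1 (3.37), Alas2 (2.37) and Hbb-bt (2.04). The summed level was 2858.46, 7472.72, 1240.72 and 1212.54 cpm after MC903 and 827.77, 1316.9, 358.25 and 1011.98 cpm after ethanol, so MC903 replicates 3 and 4 lay within the ethanol range. Only 2 were higher without the 3 libraries, with a median of 0.85, and with 1 library left out at a time 1, without ethanol replicate 1 or 3, to 7, without MC903 replicate 3. Hbb-bs was at 917.3, 2494, 390.3 and 369.4 cpm after MC903 and 285, 439.3, 112.9 and 338.2 cpm after ethanol, overlapped and did not pass (1.82 ± 0.531, adjusted p = 0.15). The haemoglobin copies are near-identical and their separate counts uncertain. The median of the 7 was 2.043 after aGr1, -0.309 after PBS and 0.104 without injection.

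Ly6g, the defining surface protein of neutrophils and a target of the antibody, was at 0.3174, 0.04796, 0.04296 and 0.04161 cpm after MC903 and 0, 0.1425, 0.05044 and 0.1286 cpm after ethanol. It was close to the limit of detection in all 8. The PBS libraries were no higher, at 0 or 1 reads each, against 0 to 6 reads in the aGr1 libraries. Its low level here is therefore not a measure of the depletion. Of the 19 neutrophil markers tested edgeR called 0, 8 of them had an unadjusted p under 0.05, and the median log2 difference was 1.193. S100a8, a calcium-binding protein abundant in neutrophils, was at 39.25, 7.242, 3.308 and 2.746 cpm against 3.514, 3.42, 4.641 and 6.216 cpm. MC903 replicate 1 held the highest value, and without it the groups cover much the same range. In PBS ganglia the neutrophil sum was 11.02 to 28.12 cpm after MC903 and 14.71 to 52.88 cpm after ethanol, against 26.75 to 214.06 and 26.94 to 42.52 cpm after aGr1.

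Cholesterol synthesis (19 tested), heat shock (12), cell-cycle (19) and vitamin D receptor feedback genes (5) had 0 calls by edgeR in either direction, with 3, 4, 6 and 2 at an unadjusted p under 0.05. DESeq2 called 3 heat shock genes lower and 0 of the other 3 lists. Hsp90aa1 was at 0.10 ± 0.131 and Pcna at 0.23 ± 0.084 on the log2 scale. The receptor gene of MC903, Vdr, was at 3.174, 2.782, 2.32 and 2.996 cpm against 1.805, 2.185, 1.917 and 1.843 cpm (0.53 ± 0.187, adjusted p = 0.241). Its groups did not overlap, and it did not pass.

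**Figure D3:**
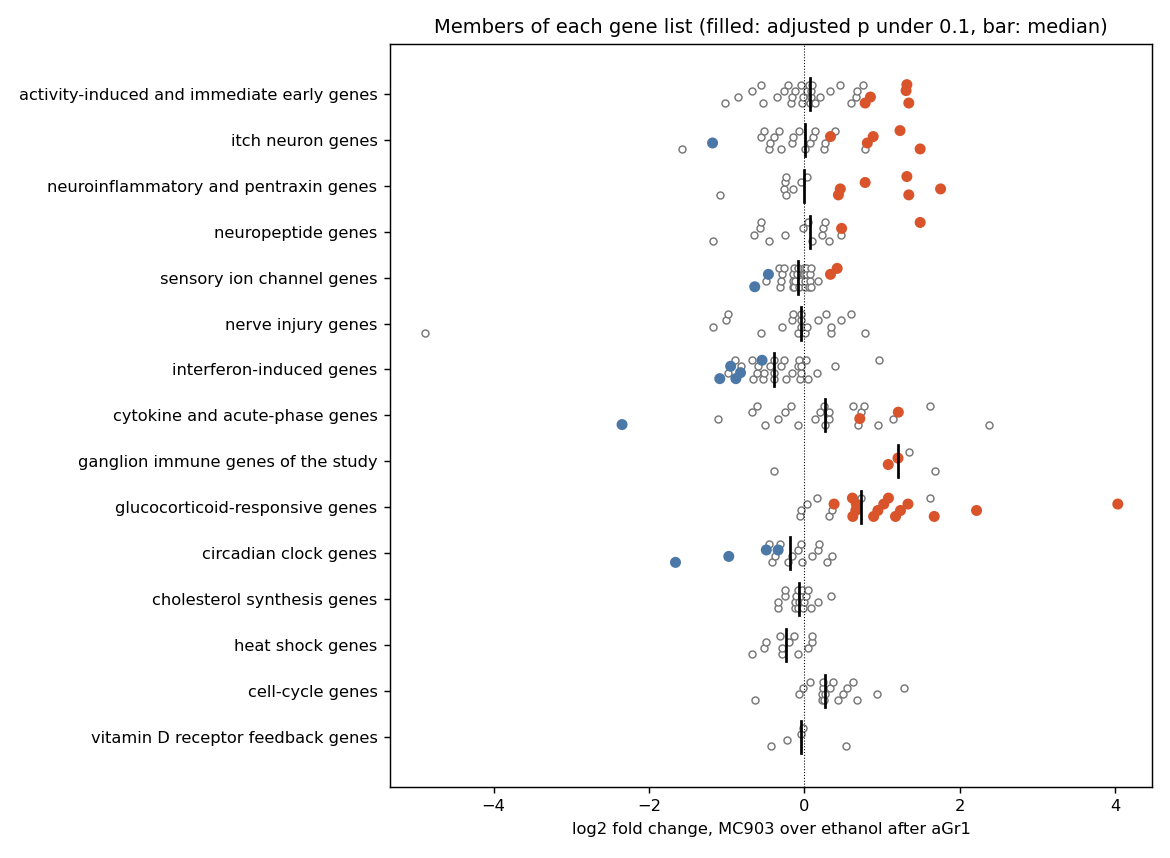
Log2 fold change of MC903 over ethanol after aGr1 for each tested member of 15 gene lists (circles), filled orange where higher and blue where lower at an adjusted p under 0.1, with the list median as a bar. Glucocorticoid-responsive genes have 15 filled circles, all to the right of 0, and interferon-induced genes 5, all to the left.

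The MC903 effect was then set beside that in mice without the antibody, measured in separate libraries. After PBS, 452 genes were higher (1.91%) and 344 lower (1.45%) of 23708, 3.36% in all, and without injection 32 (0.125%) and 9 (0.0352%) of 25600, 0.16% in all. With 1 library left out at a time the PBS total of 796 ran from 246, without ethanol replicate 3, to 3602, without MC903 replicate 4. The uninjected total of 41 ran from 5 to 71. The uninjected fit held a term for 2 styles of label, and without it 5 genes were higher and 0 lower. In the plain style of label alone 1 was higher and 0 lower. Of the 212 genes higher after aGr1, 187 of 210 tested were also above 0 after PBS, and 92 were called there, 43.4% of the aGr1 calls and 20.4% of the PBS calls. Of the 244 lower genes, 180 were below 0 after PBS and 46 were called, 18.9% and 13.4% of the respective calls. Without injection 185 of the 212 were above 0 and 205 of the 244 below 0, and 23 and 5 were called there. The 23 were 10.8% of the aGr1 calls and 71.9% of the uninjected calls in the higher direction. The 5 were 2.05% and 55.6% in the lower.

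Il31ra, Nptx2, Bdnf and Mrgprb5 were called in all 3 groups. The uninjected call of Mrgprb5 was lost without the term for label style, where no gene was called lower. Il31ra was at 32.72, 32.05, 39.42 and 35.52 cpm after MC903 and PBS and 14.88, 16.18 and 15.92 cpm after ethanol and PBS, a log2 difference of 1.15, beside 1.23 after aGr1 and 1.30 without injection. The test of the difference between aGr1 and PBS gave 0.093 ± 0.13 for it (adjusted p = 0.852). Nptx2 was 1.345, 1.49 and 1.40 higher in the aGr1, PBS and uninjected groups, Bdnf 1.32, 1.65 and 1.38, and the log2 difference of Mrgprb5 was -1.18, -1.09 and -0.975.

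Junb, Socs3, Vgf and Nptx1 were called after PBS and without injection, and after aGr1 their differences were smaller. Junb after PBS was at 11.41, 14.18, 17.54 and 13.62 cpm with MC903 and 6.387, 6.893 and 5.805 cpm with ethanol, 1.15 higher on the log2 scale, beside 0.090 after aGr1. Socs3 after PBS was at 16.51, 16.36, 19.85 and 14.46 cpm against 6.869, 6.204 and 5.515 cpm, 1.44 higher, beside 0.32. The differences between the aGr1 and PBS effects were -1.04 for Junb (unadjusted p = 0.000275, adjusted p = 0.172), -1.095 for Socs3 (unadjusted p = 0.00112, adjusted p = 0.242), -0.79 for Vgf (adjusted p = 0.403) and -0.54 for Nptx1 (adjusted p = 0.496). None passed after adjustment, and ethanol replicate 2 of the aGr1 group held the highest ethanol value of all 4 genes. Without the 3 libraries that stood apart, the aGr1 difference of Socs3 was 0.772 (adjusted p = 0.0818) and that of Junb 0.422 (adjusted p = 0.298).

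**Figure D4:**
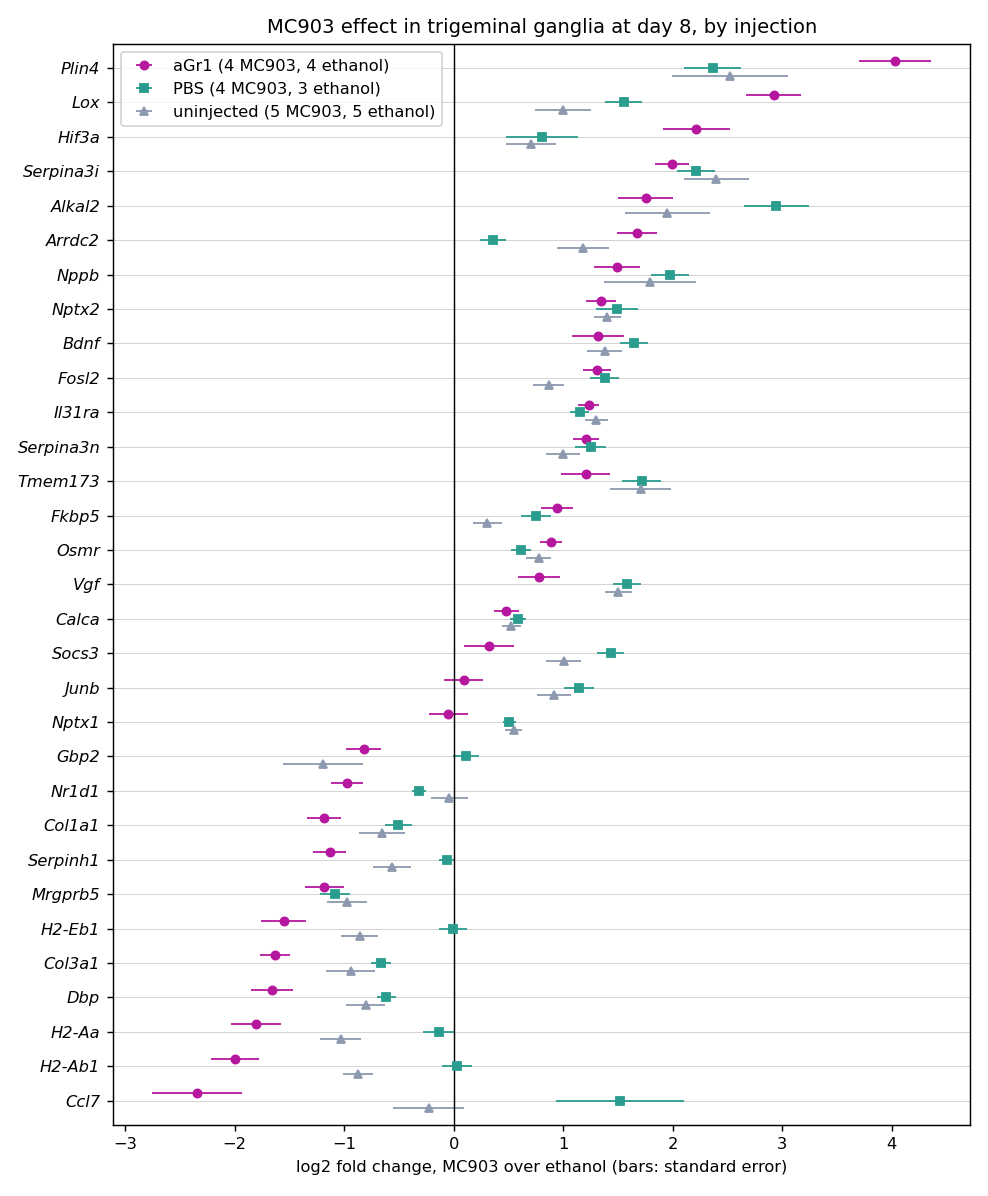
Log2 fold change of MC903 over ethanol, with its standard error, for 31 genes in aGr1-injected (circles), PBS-injected (squares) and uninjected (triangles) trigeminal ganglia at day 8. Il31ra, Nptx2 and Mrgprb5 sit together in the 3 groups, Junb, Socs3 and Nptx1 are nearest to 0 after aGr1, and H2-Ab1 is at -1.996 after aGr1 and 0.029 after PBS.

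Of 25760 genes, 9 (0.0349%) had an MC903 effect after aGr1 that differed from the effect after PBS, 8 of them in the lower direction (0.0311%) and 1 in the higher (0.00388%). With 1 library left out at a time the number ran from 0, without aGr1 MC903 replicate 4 or PBS ethanol replicate 1, to 96, without aGr1 MC903 replicate 3. H2-Ab1 led them, by -2.01 on the log2 scale (adjusted p = 0.0193). After PBS it was at 21.01, 13.99, 13.5 and 19.27 cpm with MC903 and 15.73, 16.5 and 17.51 cpm with ethanol, so the treatments overlapped there, while after aGr1 they lay far apart. Without injection it was at 13.67, 15.67, 29.54, 33.69 and 24.56 cpm with MC903 and 33.09, 38.34, 47.34, 42.72 and 44.05 cpm with ethanol, a log2 difference of -0.875 (adjusted p = 0.0288). The direction was therefore shared by the aGr1 and the uninjected group, and its difference from PBS lost its call without aGr1 MC903 replicate 4 (adjusted p = 0.104) and without PBS ethanol replicate 1 (adjusted p = 0.139).

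The other 8 had an adjusted p of 0.09998, just under the threshold. Among them, the I-A and I-E chain genes H2-Aa and H2-Eb1 differed by -1.655 and -1.53, the class I gene H2-K1 by -0.65, Ccl7 by -3.86, the muscle cadherin gene Cdh15 by -1.07 and Serpinh1 by -1.06. Arrdc2 was the one with a stronger rise after aGr1, by 1.33: after PBS it was at 10.82, 12.34, 9.11 and 9.517 cpm with MC903 and 8.496, 8.686 and 7.305 cpm with ethanol, and without injection the log2 difference was 1.18. Against the uninjected group, 0 of 27015 genes had a different MC903 effect by edgeR, with 1709 at an unadjusted p under 0.05 and 2 called by DESeq2.

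Among the gene lists, glucocorticoid-responsive genes had 15 higher members after aGr1, 7 after PBS and 0 by edgeR without injection, where 10 had an unadjusted p under 0.05, with medians of 0.725, 0.285 and 0.306. Interferon-induced genes had 5 lower members and a median of -0.393 after aGr1, 8 higher members and a median of 0.41 after PBS, and 0 called by edgeR, 22 at an unadjusted p under 0.05 and a median of -1.018 without injection. The uninjected ethanol libraries spread widely for such genes, with Usp18 from 4.776 to 36.56 cpm. No member of either list but Arrdc2 passed the test of the difference between aGr1 and PBS. Of 44 collagen genes, 9 were lower after aGr1, 5 after PBS and 0 without injection, with medians of -0.256, -0.085 and -0.085. Class II genes had 5 of 9 lower after aGr1, 0 of 8 after PBS and 3 of 9 without injection. Those 3 were Cd74, H2-Aa and H2-Ab1, and the class II medians were -0.967, -0.079 and -0.773. Of 8 Serpina3 genes, 6 were higher after aGr1, 5 after PBS and 3 without injection.

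**Figure D5:**
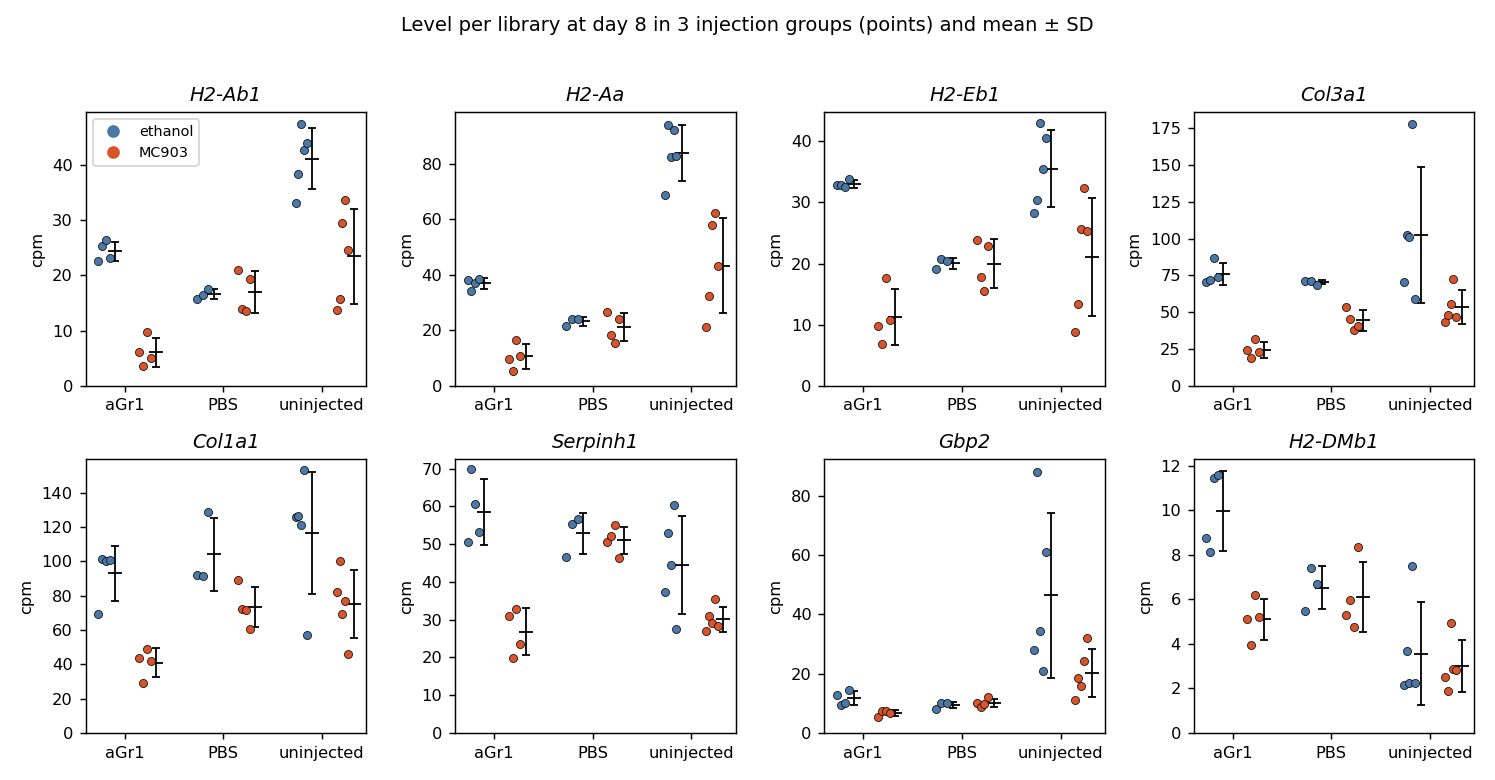
Level in cpm of 8 genes in every ethanol (blue) and MC903 (orange) library of the aGr1, PBS and uninjected groups, with mean and SD. For H2-Ab1 the aGr1 MC903 libraries are at 3.549 to 9.708 cpm, under all other libraries plotted, and Col3a1 is lower after MC903 in the aGr1 and PBS groups without overlap.

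The aGr1 and PBS groups also differed within the same cheek treatment. Between ethanol-treated ganglia 3622 of 23802 genes (15.2%) differed, 8.72% higher and 6.5% lower with aGr1, and between MC903-treated ganglia 7578 of 24208 (31.3%), 15.8% higher and 15.5% lower. The ethanol count was 8029 of 23407 without aGr1 ethanol replicate 2, and 1049 to 2358 without any 1 of the other libraries. The MC903 count was 6112 to 7379 with 1 library left out. The ethanol and MC903 counts therefore do not show whether aGr1 and PBS lay further apart after MC903. These contrasts share their libraries with the tests above. In ethanol ganglia H2-Aa and H2-Eb1 were 0.65 and 0.695 higher with aGr1 than with PBS, as was the complement gene C1qb (0.93). In MC903 ganglia the leading genes were Mphosph8 (2.05), Nexn (2.01), Eif5b (1.82), N6amt1 (1.66) and Bod1l (1.51) in the higher direction and Pcsk1n (-1.37), Hspg2 (-1.28), Shank1 (-1.04) and Gna12 (-0.84) in the lower. Ethanol replicate 2 of the aGr1 group was unlike its group for these genes, with Mphosph8 at 74.54 cpm against 280.9 to 342.9 cpm in the other 3.

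Gene length moved with this split. The Spearman correlation of a library's deviation with the exon length of 17252 genes, given as a description across genes, was -0.338 to -0.192 in the aGr1 libraries, -0.211 to 0.015 in the PBS libraries and 0.121 to 0.286 in the uninjected ones. Within the aGr1 group the MC903 libraries, at -0.338 to -0.256, and the ethanol libraries, at -0.322 to -0.192, overlapped. Within the PBS group they did not, with MC903 at -0.211, -0.159, -0.121 and -0.02 and ethanol at 0.015, 0.002 and -0.014. The part of this trend in the PBS effect of MC903, in its difference from the aGr1 effect and in the differences between injection groups was not tested. The antibody and whatever else differed between the aGr1 and PBS libraries cannot be told apart.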

How the data were processed

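Trigeminal ganglion RNA was poly(A)-selected and sequenced from one end. The authors aligned the reads to mm10 with Bowtie2 and TopHat and counted them with htseq-count, and they deposited raw counts per Ensembl gene for each library. Annotation release and strand setting are not given in the sources used here, so overlapping and antisense genes cannot be told apart. The authors' DESeq step was not rerun. Each library lists 46078 genes, of which 45229 matched GENCODE M21 for symbols and coordinates and 849 did not. The 5 tally lines were left out, and reads on no gene were 8.5335% to 12.5851% of counts in the aGr1 libraries.

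Each comparison of MC903 with ethanol was fitted on its own libraries with edgeR 4.0.16 in R 4.3.3 (quasi-likelihood F test, TMM, at least 10 counts in total, Benjamini-Hochberg adjustment over all genes tested), with a gene called at an adjusted p under 0.1, the threshold of the authors' methods for ganglia. The 2 label styles of the uninjected libraries entered as a term. Differences between MC903 effects are interaction terms over the libraries of both groups. The fit was tested on simulated counts: for the aGr1 comparison it recovered 86 of 100 genes changed by 1 on the log2 scale and 99 of 100 changed by 2, with 25 false calls among 23857 genes. The changed genes were drawn from those with a mean of at least 1 cpm, so recovery at lower levels was not tested. Each gene was simulated on its own, so libraries that stand apart in many genes at once were not part of it.

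Depth of 15931871 to 38017376 counts over the 25 libraries sets the precision, and 3 counts or fewer were taken as not detectable. Genes were named by rule: the 12 of each direction with the smallest p among called genes without overlap between groups, up to 5 per direction in the other contrasts, genes named for the ganglion in the study, and up to 4 called members of each list (otherwise 3 with the highest level). A few genes that the rule names are not reported here, but they stay in the counts over lists and over all genes. Genes named outside the rule are marked as chosen after their values were seen or given as members of a list. The group of libraries, the lists and the tests were all chosen with earlier results of these data known. Alternatives were RLE size factors, DESeq2 1.42.0, other filters on low counts, a threshold of 0.05, the replicate block, 1 fit over all 25 libraries, leaving out 1 library at a time and, chosen after seeing the data, leaving out 3 libraries together, the last 2 also for marker lists, gene families and further named genes.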

Additional observations from a re-analysis of the deposited data

Results flagged for a closer look

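In 13 of 202 groups of 4 aGr1 libraries tested (6.44%) 1 library lay far from the other 3, by Dixon's criterion at its 95% critical value, which chance alone passes in about 1 of 20 groups. Ethanol replicate 2 accounted for 5 of the 13: Gap43 was low there at 133.5 cpm and the skeletal muscle marker sum at 71.12 cpm, while Lifr was high at 541.7 cpm, Mcm6 at 9.406 cpm and Egr3 at 2.613 cpm. In MC903 replicate 3 Fosl2 was low at 18.94 cpm, below 22.85 cpm in the next library but above every ethanol library, and Col15a1 was high at 42.14 cpm and Lctl at 1.203 cpm. MC903 replicate 2 was low for Gap43, at 207.2 cpm. MC903 replicate 1 held the high neutrophil marker sum of 214.06 cpm and a Schwann cell marker sum of 12145.95 cpm. Ethanol replicate 1 was low for Col1a1 at 69.15 cpm, and ethanol replicate 3 was high for Usp18 at 4.035 cpm. What set these libraries apart was not tested.

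For 9 genes the MC903 effect after aGr1 differed from that after PBS in the interaction test. H2-Ab1 differed by -2.01 on the log2 scale, with an adjusted p of 0.0193 by edgeR. Among those with an adjusted p of 0.09998 the differences were -3.858 for Ccl7, -1.655 for H2-Aa, -1.531 for H2-Eb1, -1.069 for Cdh15, -1.063 for Serpinh1, -0.65 for H2-K1 and 1.33 for Arrdc2. Cdh15 was called higher after PBS (0.82) and was at -0.26 after aGr1, and H2-K1 was at 0.41 and -0.25.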

How the results depend on the processing

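The number of genes called after aGr1, 456, became 226 at an adjusted p under 0.05, 887 with DESeq2, 580 with the replicate block and 161 to 463 with 1 library left out. Of 61 calls among the 86 genes refitted under every alternative, the block, DESeq2 and no filter on low counts lost none (DESeq2 gave Ccl7 no adjusted p), RLE and filterByExpr lost 1 each, and 1 fit over the 25 libraries lost 6 (Cysltr2, Gbp2, H2-DMb1, Ifit3, Nr3c1 and Usp18). Same-numbered MC903 and ethanol libraries deviated together with correlations of 0.233, 0.12, 0.11 and -0.051, and not every library correlated best with its own number, so the numbers were not taken to pair the libraries.

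The PBS count of 796 became 466 at 0.05, 1271 without a filter, 3479 with the replicate block, 62 in 1 fit and 246 to 3602 with 1 library left out. The uninjected count of 41 became 26 at 0.05, 493 without a filter, 210 with DESeq2, 5 without the term for label style, 1 in the plain style alone and 5 to 71 with 1 library left out. The 9 differences between the aGr1 and PBS effects became 1 at 0.05, with filterByExpr and in 1 fit, 158 without a filter, 147 with DESeq2, about 1.1e+02 with the replicate block and 0 to 96 with 1 library left out. Against the uninjected group the count of 0 became 30 without a filter and 2 with DESeq2. The ethanol contrast of aGr1 with PBS, 3622, became 2156 at 0.05, 2144 with the replicate block, 2403 in 1 fit and 1049 to 8029 with 1 library left out. The 8029 came without aGr1 ethanol replicate 2. The causes were not tested.

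Among genes that were not called, the sign turned without the 3 libraries that stood apart for Hspb1 (0.01), Lifr (0.006), Nptx1 (0.409), Rxra (0.053) and Tyms (-0.11). With 1 library left out the log2 differences ran through 0 for Dnaja1 (-0.023 to 0.163), Hsp90aa1 (-0.029 to 0.168), Hspa8 (-0.01 to 0.088), Junb (-0.021 to 0.26), Nptx1 (-0.157 to 0.165) and Rxra (-0.079 to 0.089). Genes at a few reads a library, such as Ccl7 and Ly6g, are limited by depth.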
